A study of Mus musculus with 9 samples.

Results

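The 10 genes described here belong to the circadian clock: Arntl, Npas2, Per1, Per2, Per3, Cry1, Nr1d1, Nr1d2, Dbp and Nfil3. They were taken by symbol from a count table that lists 55453 genes, and all 10 were among the 19412 genes with enough counts to be tested. The libraries were made from flash-frozen aortae of 9 C57BL/6J mice in 3 genotypes of 3 mice. The genotype Itga8-Cre stands for Itga8-CreERT2, a Cre recombinase that tamoxifen activates, in a line named after the integrin gene Itga8. Myh11-Cre stands for Myh11-CreERT2, an older line of the same kind named after the smooth muscle myosin gene Myh11, and Wild Type mice served for comparison. The labels state neither hour of collection, light schedule, age, sex nor tamoxifen treatment, so the phase of the clock at collection is not known for any mouse.

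The clock is a transcriptional feedback loop that runs in most cells, those of the vessel wall included. Arntl protein (Bmal1) pairs with Clock or Npas2 and switches on the Per and Cry genes, whose proteins return to the nucleus and block the pair. The same pair drives Nr1d1 and Nr1d2, the Rev-erb receptors that repress Arntl, and Dbp, an activator at D-boxes where Nfil3 acts as a repressor. Arntl transcripts are therefore known to peak at a phase when those of Dbp are low.

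Promoter sequences from RefSeq (GRCm38.p6), each with 250 bases before and 50 bases after a start site, matched 9 of the 10 members by symbol, and Per2 had no entry. Motifs were searched on both strands: the E-box bound by the Arntl pair (CACGTG), the D-box (TTATGTAA or TTACGTAA), the core of the element of Rev-erb receptors (TAGGTCA) and the cAMP response element (TGACGTCA). No match overlapped another in a member. The 250 bases before the start are printed for Per1, Per3 and Cry1, 5′ to 3′ on the strand of the gene, because these windows hold the members' E-boxes and D-boxes. Capitals mark the E-box in Per1 and Cry1 and the D-boxes in Per3.
Per1 (chr11:69098699-69098948, plus strand): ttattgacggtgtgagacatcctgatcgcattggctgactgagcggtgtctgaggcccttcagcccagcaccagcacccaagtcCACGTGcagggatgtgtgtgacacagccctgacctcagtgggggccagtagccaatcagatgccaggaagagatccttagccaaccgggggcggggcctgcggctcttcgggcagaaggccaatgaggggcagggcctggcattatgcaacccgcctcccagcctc
Per3 (chr4:151044666-151044915, minus strand): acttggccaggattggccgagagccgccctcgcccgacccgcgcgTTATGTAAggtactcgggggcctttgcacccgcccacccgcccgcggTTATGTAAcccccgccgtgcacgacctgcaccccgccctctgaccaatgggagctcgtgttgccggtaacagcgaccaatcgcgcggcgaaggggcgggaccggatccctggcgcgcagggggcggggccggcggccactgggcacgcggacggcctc
Cry1 (chr10:85185055-85185304, minus strand): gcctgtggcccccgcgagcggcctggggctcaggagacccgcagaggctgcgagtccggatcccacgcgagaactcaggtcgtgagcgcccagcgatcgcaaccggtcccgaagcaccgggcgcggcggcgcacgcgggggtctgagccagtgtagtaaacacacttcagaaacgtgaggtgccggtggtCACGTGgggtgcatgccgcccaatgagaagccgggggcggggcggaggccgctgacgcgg

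Per1 and Cry1 were the 2 of 9 member genes with an E-box, which 8.09% of all 27025 genes and 7.15% of all 32851 promoters held. Per1 has a further listed promoter, which held none. It began 166 bases before the start in Per1 and 60 bases before it in Cry1. Per3 held 2 copies of the D-box, beginning 205 and 158 bases before the start, where 1.23% of all genes and 1.06% of all promoters held any. The receptor element core began 30 bases after a listed start in Arntl and 12 bases before the start in Nfil3, and 2.97% of all genes and 2.61% of all promoters held it. The cAMP response element was in 0 of the 9, in 2.03% of all genes and in 1.79% of all promoters. A match is a match of letters only, and a window without one says nothing of sites elsewhere.

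Among the members, Dbp had the highest level per length of annotated exon and Arntl and Npas2 the lowest. All annotated exons of a gene were merged, so this length can exceed that of a transcript, and close orders can depend on it. Dbp (chromosome 7, 45705088 to 45710203) averaged 31.6 ± 6.47 CPM per kilobase of exon over the 9 libraries (SD), where CPM is the read count scaled by library size. Nr1d2 (chromosome 14) averaged 24.3 ± 2.75 CPM per kilobase and was below Dbp in 8 of 9 libraries. Nr1d1 (chromosome 11) and Per1 (chromosome 11) averaged 16.2 ± 3.77 and 16.1 ± 3.63 CPM per kilobase, and their order was not fixed, Nr1d1 being higher in 5 of 9 libraries. Then came Per2 (chromosome 1) at 13.9 ± 3.08 and Per3 (chromosome 4) at 11 ± 2.15 CPM per kilobase. Nfil3 (chromosome 13) at 6.53 ± 1.92 exceeded Cry1 (chromosome 10) at 5.6 ± 1.12 CPM per kilobase in 7 of 9 libraries, a gap smaller than their spread. Arntl (chromosome 7, 113207465 to 113314126) averaged 1.05 ± 0.357 and Npas2 (chromosome 1) 0.175 ± 0.0595 CPM per kilobase. Dbp overlaps Sphk2 and Nr1d1 overlaps Thra, both on the opposite strand. Arntl and Npas2 overlap gene models there (Gm45355 and Gm20428). Whether the counting used strand is not given, so reads of these partners may be included. Per3 overlaps Camta1 and Npas2 overlaps the gene model Gm3617 on the same strand, where a strand setting would not separate reads.

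The libraries held 31419238 to 42497543 counts. Itga8, the gene named in the new Cre line, ran from 54.1 to 76.5 CPM in the Itga8-Cre libraries and from 147 to 475 CPM in the Wild Type ones. It stood at 72.4 CPM in Myh11-Cre 1, within the Itga8-Cre range, and at 298 and 300.3 CPM in Myh11-Cre 2 and 3, and Myh11 was lowest in Myh11-Cre 1 (460.5 CPM). All 12 smooth muscle markers were detected in each library, with sums of 1675 to 2217 CPM for Itga8-Cre, 1352 to 3959 CPM for Myh11-Cre and 2553 to 4176 CPM for Wild Type. The sums of 10 macrophage and leukocyte markers were 982 to 1527, 642 to 1214 and 554 to 750.1 CPM in that order, and those of 10 nerve and chromaffin markers 322 to 518, 121 to 319.5 and 358 to 800.4 CPM. Itga8-Cre and Wild Type were thus separate in the smooth muscle and macrophage sums, and Myh11-Cre was below both others in the nerve sum. Transcripts of neighbouring tissues varied: 15 skeletal muscle markers summed to 205 CPM in Myh11-Cre 1 and 19288 CPM in Myh11-Cre 3, and 10 brown fat markers to between 2273 and 7476 CPM. The 10 immature thymocyte markers summed to 177 CPM in Itga8-Cre 2, where Rag2 and Ptcra were at 0, and to 1136 CPM in Itga8-Cre 3. Cd1d1 gave at least 64.7 CPM of this sum in every library, while Rag1 ran from 0.443 to 477 CPM in these 2 libraries. In such tissue, fewer cells of a type and less RNA per cell cannot be told apart.

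No clock gene passed the test between genotypes, that is 0 of 10 in each of the 3 comparisons. Against Wild Type, Itga8-Cre gave 9 members a negative log2 fold change and Arntl a positive one, with a median of -0.11 where all tested genes had 0.04. Myh11-Cre gave 6 positive and 4 negative values against the same Wild Type libraries (median 0.11, all genes 0.01). Between the Cre lines, Itga8-Cre minus Myh11-Cre, 2 were positive and 8 negative (median -0.25, all genes 0.01). The values of largest size were those of Nfil3 between the Cre lines and of Per2 and Per1 in Itga8-Cre against Wild Type.

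The test was edgeR's quasi-likelihood F test, adjusted by Benjamini-Hochberg across all 19412 genes, with a threshold of 0.05. It called 0% of all genes in every comparison, and the smallest adjusted p of a member was 0.699 for Itga8-Cre and 0.386 for Myh11-Cre against Wild Type, and 0.521 between the Cre lines. DESeq2 also called 0 of 10 members, while calling 0.166%, 4.44% and 0.109% of its tested genes in the same order. Unadjusted p values under 0.05 from edgeR fell to 2 members (Per1 and Per2), 0 members and 1 member (Nfil3), beside 6.78%, 16.4% and 9.48% of all genes. The 3 libraries of one genotype lay wholly above or below those of the other for 0 of 10 members, beside 11.1%, 26% and 12.7% of all genes. A missed threshold does not show equal levels, and the 95% intervals below give the differences that these mice leave possible.

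**Figure D1:**
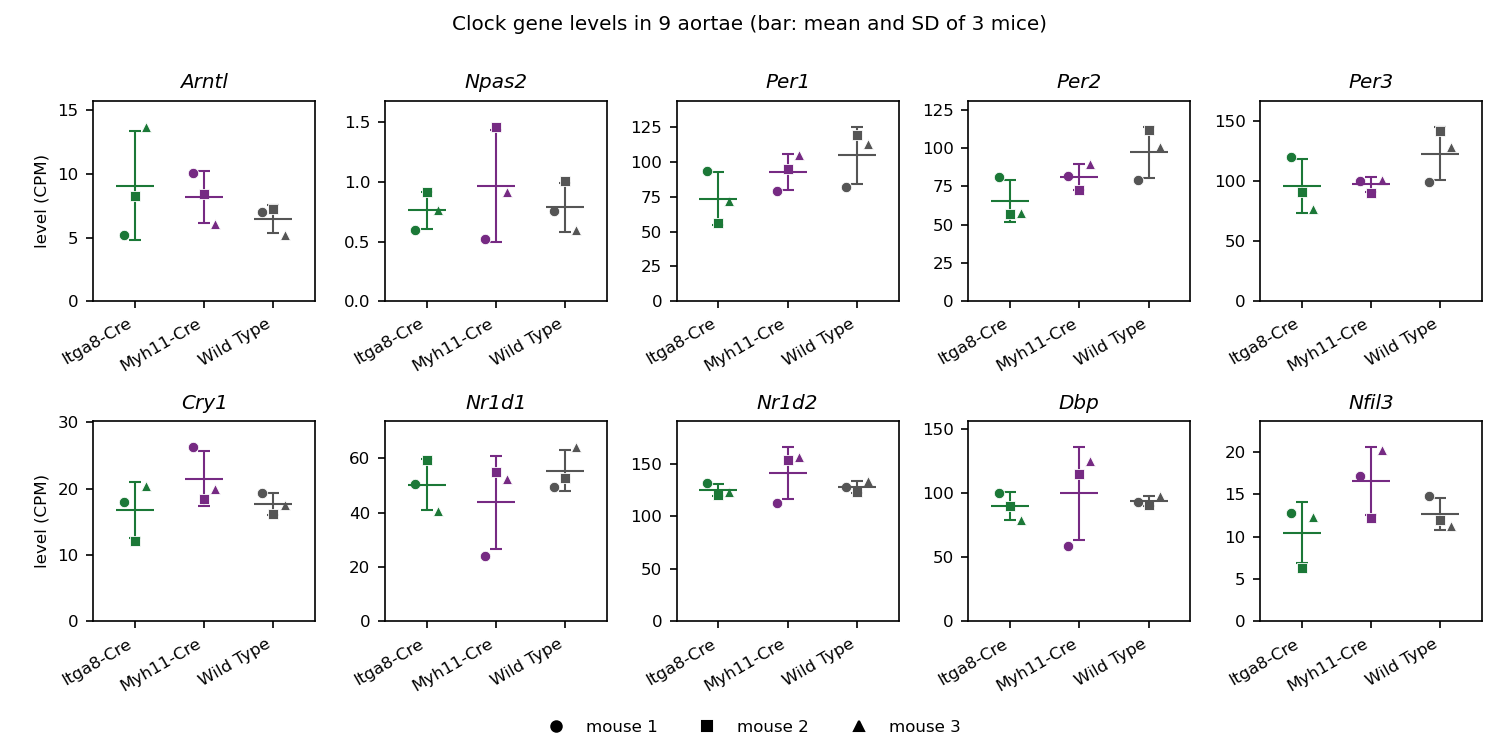
Level of each clock gene in CPM (vertical axes, from 0) in the 9 libraries, by genotype; symbols are single mice, the long bar is the mean and the whiskers are 1 SD of 3 mice. The genotypes overlap for every gene, and Per2 runs from 57.1 CPM in an Itga8-Cre mouse to 111 CPM in a Wild Type mouse.

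Levels are given below in CPM for mice 1, 2 and 3 of a genotype in that order. Arntl, the core activator, measured 5.23, 8.3 and 13.7 in Itga8-Cre mice, 10.1, 8.41 and 6.04 in Myh11-Cre mice, and 7.04, 7.22 and 5.23 in Wild Type mice. Itga8-Cre spanned nearly the whole range, from a level shared with Wild Type 3 up to the highest library, Itga8-Cre 3. The group means were 9.07 ± 4.28, 8.18 ± 2.04 and 6.5 ± 1.1 CPM (SD, n = 3 each). Against Wild Type, Arntl had a log2 fold change of 0.48 in Itga8-Cre (SE 0.34, 95% interval -0.29 to 1.26) and of 0.33 in Myh11-Cre (SE 0.34, interval -0.44 to 1.11). The first value became 0.05 without Itga8-Cre 3, where immature thymocyte transcripts were most abundant, and their part in the result was not tested.

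Npas2, which can replace Clock as the partner of Arntl, gave only 19 to 60 reads per library. It measured 0.6, 0.913 and 0.767 in Itga8-Cre mice, 0.52, 1.46 and 0.912 in Myh11-Cre mice, and 0.753, 1 and 0.599 in Wild Type mice. Both extremes lay in Myh11-Cre. Intervals ran from -0.96 to 0.87 for Itga8-Cre and from -0.61 to 1.2 for Myh11-Cre against Wild Type, and its within-genotype SD of log2 CPM was 0.50.

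The Period genes, repressors of the loop, had their highest means and their highest single library (Wild Type 2) in Wild Type. Per1, which is also induced quickly by glucocorticoids and cAMP, measured 93.5, 56.1 and 71.9 in Itga8-Cre mice, 79.3, 95.1 and 105 in Myh11-Cre mice, and 81.8, 120 and 113 in Wild Type mice. Itga8-Cre 2 and 3 lay under all Wild Type mice, while Itga8-Cre 1 lay above Wild Type 1. Per2, a main repressor of the loop, measured 81.3, 57.1 and 57.5 in Itga8-Cre mice, 81.9, 72.5 and 89.4 in Myh11-Cre mice, and 79.1, 111 and 101 in Wild Type mice. Its means were 65.3 ± 13.9, 81.3 ± 8.43 and 97.2 ± 16.5 CPM, and Itga8-Cre 1 again overlapped Wild Type. Per3, a further Period gene, measured 120, 90.7 and 76.4 in Itga8-Cre mice, 100, 90.2 and 101 in Myh11-Cre mice, and 98.8, 142 and 128 in Wild Type mice. Its Myh11-Cre mice lay close together, and its means were 95.7 ± 22.3, 97.1 ± 6.01 and 123 ± 21.9 CPM.

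For Itga8-Cre against Wild Type the log2 fold change of Per2 was -0.57 (SE 0.18, 95% interval -0.98 to -0.17), with an unadjusted p of 0.0112 and an adjusted p of 0.699 by edgeR. Per1 had -0.51 (SE 0.21, interval -0.99 to -0.02) and Per3 -0.36 (SE 0.19, interval -0.78 to 0.07), each with that adjusted p. For Myh11-Cre against Wild Type the values were -0.17 for Per1, -0.26 for Per2 and -0.34 for Per3. These 6 values remained negative without any one of the 9 libraries, but their size moved. For Myh11-Cre against Wild Type, leaving out Wild Type 2 gave -0.057 for Per1, -0.14 for Per2 and -0.21 for Per3. Per1 there was also -0.068 without Myh11-Cre 1, -0.11 without Wild Type 3, -0.26 without Myh11-Cre 3 and -0.32 without Wild Type 1. Per3 in Itga8-Cre against Wild Type was -0.23 without Itga8-Cre 3 and -0.56 without Itga8-Cre 1.

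Other transcripts differed beside the Period genes. For Itga8-Cre against Wild Type the median log2 fold change was -0.57 over the 12 smooth muscle markers and 0.65 over the 10 macrophage and leukocyte markers. Per2 had r of 0.07 with the smooth muscle score, and r of -0.60 and rho of -0.75 with the macrophage score (exact permutation p = 0.0927 for r, adjusted 0.411). In deviations from genotype means r was -0.43 with the smooth muscle score and -0.21 with the macrophage score. The macrophage value was -0.34 without Itga8-Cre 2 and Myh11-Cre 2, and the smooth muscle value 0.02 without Myh11-Cre 1 and Myh11-Cre 3. The summed level of 20 immediate early genes was 348 to 419 CPM in Itga8-Cre, 341 to 532 CPM in Myh11-Cre and 440 to 714 CPM in Wild Type. On the mean log2 scale this list overlapped, with Itga8-Cre 2 at 3.93 and Wild Type 2 at 3.88. The part of these transcripts in the Period values was not tested.

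Cry1, a cryptochrome that represses the Arntl pair, and Nfil3, the repressor at D-boxes, had their highest means in Myh11-Cre. Cry1 measured 18, 12.1 and 20.4 in Itga8-Cre mice, 26.2, 18.5 and 19.9 in Myh11-Cre mice, and 19.4, 16.2 and 17.6 in Wild Type mice. Myh11-Cre 1 was highest and Itga8-Cre 2 lowest. Nfil3 measured 12.8, 6.31 and 12.3 in Itga8-Cre mice, 17.1, 12.3 and 20.2 in Myh11-Cre mice, and 14.8, 12 and 11.3 in Wild Type mice. Between the Cre lines Myh11-Cre 2 alone reached into the Itga8-Cre range. The log2 fold change of Nfil3 there was -0.66 (SE 0.28, 95% interval -1.31 to -0.01, adjusted p = 0.521 by edgeR), and -0.41 without Itga8-Cre 2. That library also had the least brown fat transcripts (2273 CPM summed) and the lowest sum of 12 glucocorticoid-responsive genes (1119 CPM), and the part of either in the result was not tested.

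The Rev-erb receptors and Dbp shared their lowest library, Myh11-Cre 1. Nr1d1, which represses Arntl, measured 50.6, 59.4 and 40.7 in Itga8-Cre mice, 24.1, 54.7 and 52.3 in Myh11-Cre mice, and 49.4, 52.8 and 63.9 in Wild Type mice. Nr1d2, its close relative, measured 131, 120 and 123 in Itga8-Cre mice, 113, 154 and 157 in Myh11-Cre mice, and 128, 123 and 133 in Wild Type mice. Dbp measured 101, 90.2 and 79.2 in Itga8-Cre mice, 58.8, 116 and 126 in Myh11-Cre mice, and 93.2, 90.8 and 98 in Wild Type mice. For Nr1d2 and Dbp the other Myh11-Cre mice were the highest of all, so this genotype held both ends of the range. Dbp had a log2 fold change against Wild Type of -0.06 in Itga8-Cre (SE 0.25, 95% interval -0.63 to 0.5) and 0.09 in Myh11-Cre (SE 0.25, interval -0.48 to 0.65).

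Without Myh11-Cre 1 the value of Dbp for Myh11-Cre against Wild Type was 0.36 (adjusted p = 0.174 by edgeR). Myh11-Cre 1 and Itga8-Cre 1 had the least skeletal muscle transcripts. With both left out (this was decided with the data in view), Dbp had 0.35 (SE 0.09, adjusted p = 0.0879) against Wild Type and -0.53 (SE 0.1, adjusted p = 0.118) between the Cre lines by edgeR, and 0 of 10 members passed. That fit did call other genes in Myh11-Cre against Wild Type, as counted below with the dependence on processing. The Myh11-Cre mice that remain there had the most skeletal muscle transcripts of all, 12330 and 19288 CPM summed. With the skeletal muscle score as a covariate over the 9 libraries, Dbp had -0.03 for Myh11-Cre against Wild Type.

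**Figure D2:**
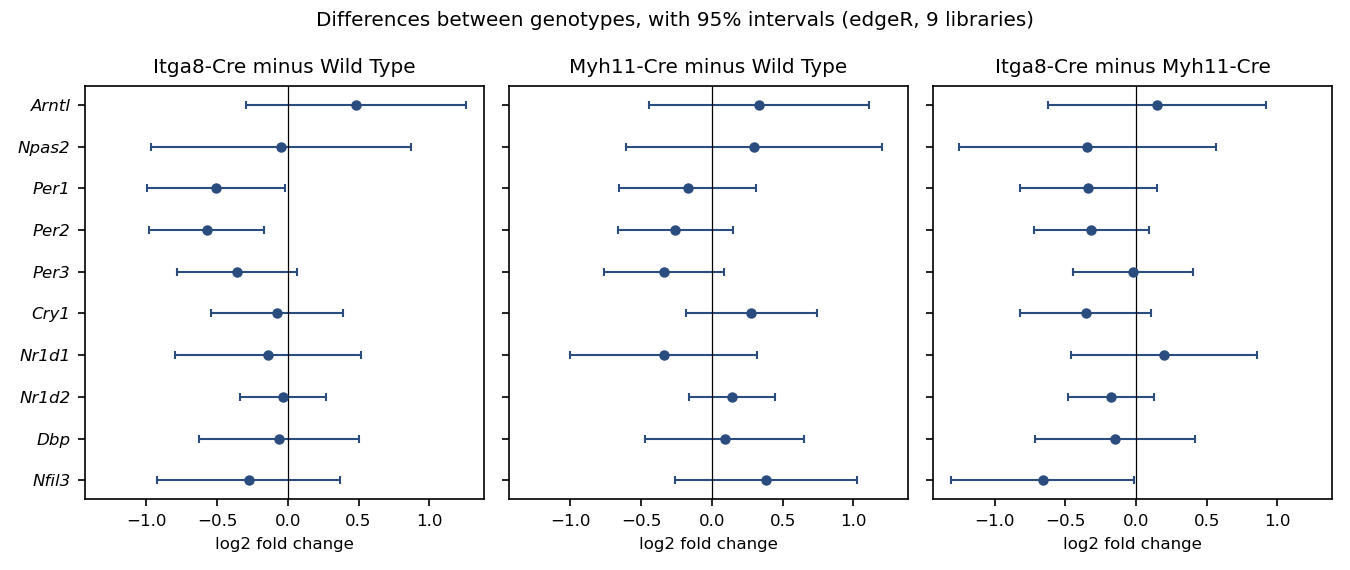
Log2 fold change of each clock gene (horizontal axes, points) with its 95% interval (whiskers) from edgeR's fit to the 9 libraries, in the 3 comparisons. All but 3 of the 30 intervals cross 0, the exceptions being Per1 and Per2 in Itga8-Cre minus Wild Type and Nfil3 in Itga8-Cre minus Myh11-Cre, and none of the 30 passed after adjustment over all genes.

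Clock transcripts differed between mice, both over all libraries and within genotypes. From the lowest to the highest of the 9 libraries, genotype differences included, the level spanned 1.39-fold for Nr1d2, 2.62-fold for Arntl and 3.2-fold for Nfil3. The other members lay between 1.86-fold and 2.81-fold. The SD of log2 CPM within genotypes was 0.48 for Arntl, which exceeds that of 89.5% of the 11642 genes with a mean of at least 5 CPM. It was 0.43 for Nr1d1 (above 86.9% of those genes), 0.41 for Nfil3 (85.5%), 0.36 for Dbp (81.6%), 0.24 for Per2 (63.3%) and 0.16 for Nr1d2 (41.3%). Of the members ranked, Nr1d2 alone varied less than the median gene.

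Over the 9 mice, permuted without regard to genotype, 3 of 45 pairs of members were correlated after Benjamini-Hochberg adjustment over the 45. The share of all gene pairs with such r was not computed, so this count is not read as particular to clock genes. Per1 and Per2 had Pearson's r of 0.90 and Spearman's rho of 0.85 (exact permutation p = 0.000788, two-sided, adjusted 0.0177). Per2 and Per3 had r of 0.89 and rho of 0.90 (exact permutation p = 0.00175, adjusted 0.0262). Nr1d2 and Dbp had r of 0.90 and rho of 0.93 (exact permutation p = 0.000623, adjusted 0.0177). Without the 2 libraries farthest from the median of the first gene, r was 0.80, 0.87 and 0.87. In deviations from genotype means it was 0.83, 0.94 and 0.97. Exact permutation within genotypes only gave unadjusted p of 0.0509, 0.0139 and 0.0278 for these deviations, so the adjusted values above hold only for free permutation. Per2 had r of 0.18 with Dbp and 0.17 with Nr1d2, and Per1 had r of 0.42 and 0.47 with these genes.

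Tissue scores ran beside Nr1d2 and Dbp. With the fibroblast score Dbp had r of 0.86 and rho of 0.80 (exact permutation p = 0.00266) and Nr1d2 r of 0.78 and rho of 0.70 (exact permutation p = 0.0125). These became 0.72 and 0.52 without Myh11-Cre 1 and Myh11-Cre 2. With the smooth muscle score both had r of 0.74, which became 0.34 for Dbp and 0.48 for Nr1d2 without Myh11-Cre 1 and Myh11-Cre 3. The markers in that score were not uniform, as Des was lowest in Wild Type 1 (99.6 CPM), where Acta2 was highest (1038 CPM). Des was highest in Myh11-Cre 3 (729 CPM). With the skeletal muscle score r was 0.67 for Dbp and 0.68 for Nr1d2, and 0.56 and 0.73 without Myh11-Cre 1 and Itga8-Cre 1. None passed adjustment over the 110 relations of members to lists (adjusted p = 0.262 by Benjamini-Hochberg over exact permutation values), and the part of these tissues in the pair was not tested.

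Other pairs did not pass. Cry1 and Nfil3 had r of 0.85 and rho of 0.82 (exact permutation p = 0.0145, adjusted 0.156), and r of 0.54 without Itga8-Cre 2 and Myh11-Cre 1. Nr1d1 and Dbp had r of 0.81 and rho of 0.43 (exact permutation p = 0.0192, adjusted 0.156), and r of -0.16 without Myh11-Cre 1 and Itga8-Cre 3. These 2 libraries lie farthest from the Nr1d1 median, so leaving them out also narrows its range. In deviations from genotype means r was 0.93 (exact permutation within genotypes p = 0.0694). Cry1 and Nfil3 also followed the brown fat score, with r of 0.80 and rho of 0.67 for Cry1 (exact permutation p = 0.0125) and r of 0.78 and rho of 0.83 for Nfil3 (exact permutation p = 0.0133). Without Itga8-Cre 2 and Itga8-Cre 1 these were 0.92 and 0.81. With the glucocorticoid-responsive list r was 0.79 for Cry1 and 0.81 for Nfil3, and 0.54 and 0.61 without Itga8-Cre 2 and Wild Type 1. With the fat cell markers r was 0.74 and 0.71, and -0.11 and 0.16 without Itga8-Cre 2 and Myh11-Cre 1, the 2 farthest from the median score. In deviations from genotype means r with the fat cell markers was 0.73 and 0.65. All 6 had an adjusted p of 0.262 over the 110 relations.

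**Figure D3:**
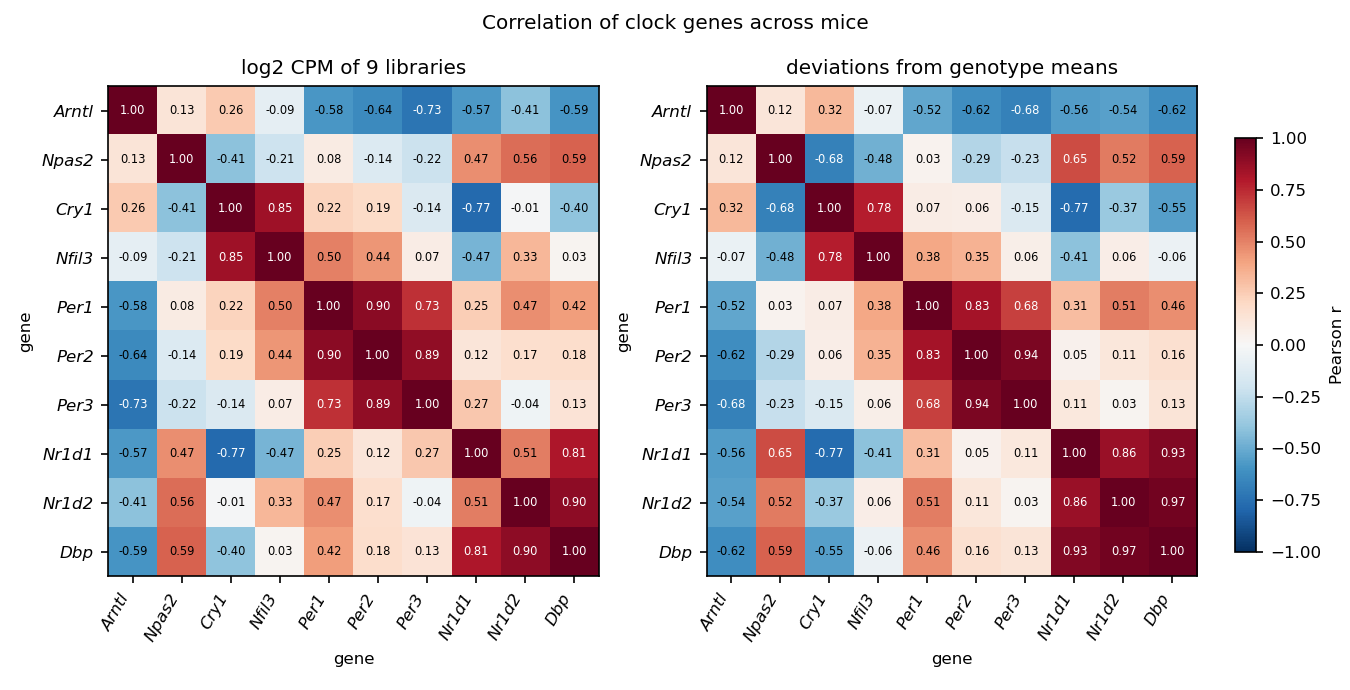
Pearson correlation of log2 CPM between all pairs of clock genes over the 9 libraries (left) and of deviations from genotype means (right); colour and the printed number give r, from -1 to 1. Per1, Per2 and Per3 form a positive block, Dbp is positive with Nr1d1 and Nr1d2, and Arntl is negative with all 6 of these genes.

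Arntl had negative correlations with genes that it is known to drive, and none passed adjustment over its 9 relations. Its r was -0.73 with Per3, -0.64 with Per2, -0.59 with Dbp, -0.58 with Per1, -0.57 with Nr1d1 and -0.41 with Nr1d2. For Per3, rho was -0.72, the exact permutation p 0.0243 and the adjusted p 0.201, with r of -0.58 without Itga8-Cre 3 and Myh11-Cre 1. For Dbp, rho was -0.63, the exact permutation p 0.0951 and the adjusted p 0.201, and r became -0.13 without the same libraries. These libraries lie farthest from the Arntl median. Without them r was -0.54 with Per2, -0.50 with Per1, -0.04 with Nr1d1 and -0.09 with Nr1d2. In deviations from genotype means r was -0.68 for Per3 and -0.62 for Dbp. Arntl had r of 0.13 with Npas2 and 0.26 with Cry1.

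The ratio of Dbp to Arntl combines opposite arms of the loop. It was 19.2, 10.9 and 5.78 in Itga8-Cre mice, 5.82, 13.7 and 20.8 in Myh11-Cre mice, and 13.2, 12.6 and 18.7 in Wild Type mice. Each Cre line held a mouse under the Wild Type range and another above it. On the log2 scale the means were 3.41 ± 0.87, 3.57 ± 0.94 and 3.87 ± 0.31 (SD, n = 3 each). The mice with the lowest ratios, Itga8-Cre 3 and Myh11-Cre 1, had the most immature thymocyte transcripts (1136 and 770 CPM summed) and unlike amounts of skeletal muscle transcripts (8453 and 205 CPM summed).

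With the mean log2 level of the thymocyte markers, Arntl had r of 0.70 and rho of 0.80 (exact permutation p = 0.035, adjusted p = 0.262 over the 110 relations). It was 0.40 without Itga8-Cre 3 and Itga8-Cre 1, and 0.89 in deviations from genotype means. With the endothelial markers Arntl had r of -0.79 and rho of -0.68 (exact permutation p = 0.0111, adjusted p = 0.262), -0.68 without Itga8-Cre 3 and Wild Type 1, and -0.77 in deviations from genotype means. The part of thymic or endothelial RNA in the level of Arntl was not tested. With Itga8-Cre 3 and Myh11-Cre 1 left out (again decided with the data in view), Arntl had log2 fold changes against Wild Type of 0.06 in Itga8-Cre and 0.16 in Myh11-Cre, and 0 of 10 members passed in each comparison. This fit did call other genes, whose counts are given below with the dependence on processing.

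**Figure D4:**
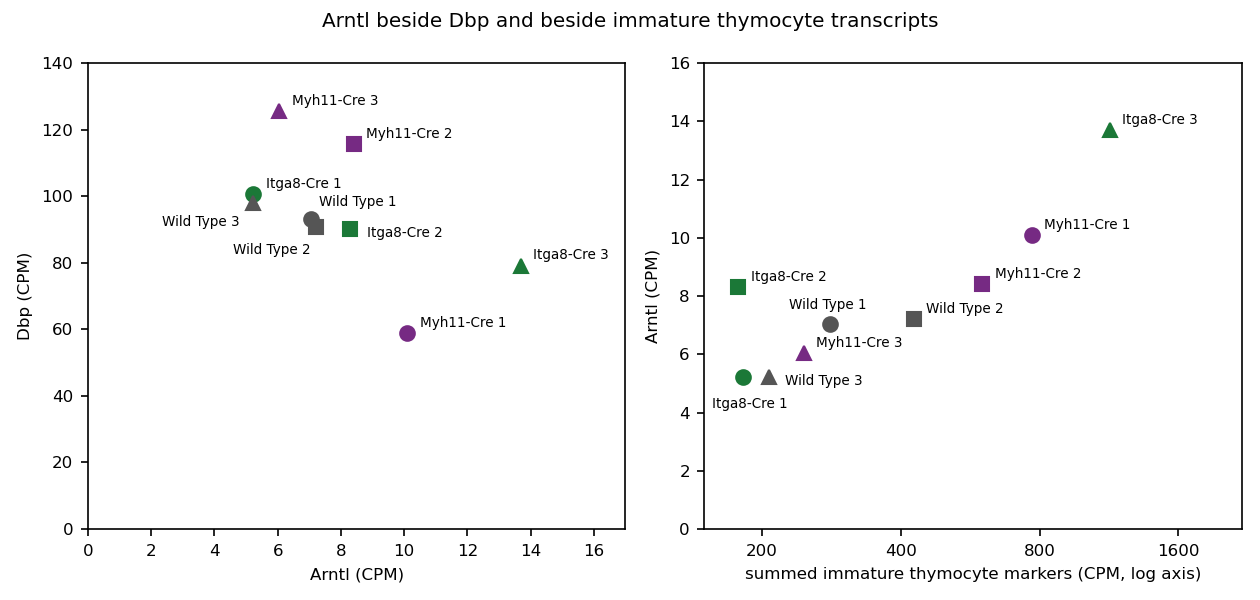
Left, level of Dbp against that of Arntl (both in CPM, axes from 0); right, level of Arntl in CPM against the summed level of 10 immature thymocyte markers in CPM (log axis), each point being 1 labelled library (green Itga8-Cre, purple Myh11-Cre, grey Wild Type). Itga8-Cre 3 and Myh11-Cre 1 have the highest Arntl, the lowest Dbp and the highest thymocyte sums.

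The gene most like Dbp in log2 CPM over the 9 libraries, among 11230 named genes with a mean of at least 5 CPM, was Bhlhe41, a repressor in the clock, with r of 0.95. Bhlhe41 measured 18.4, 17.9 and 15.8 in Itga8-Cre mice, 14.3, 21.1 and 20.1 in Myh11-Cre mice, and 19, 17.5 and 17.9 in Wild Type mice. Like Dbp it was lowest in Myh11-Cre 1 and highest in the other Myh11-Cre mice. Rassf9 (0.95), the ephrin receptor Ephb3 (0.94), Adamtsl5 (0.93) and the matrix protein Ltbp4 (0.93) came next, and Socs4 (-0.96), Hps6 (-0.95) and Aagab (-0.94) were lowest. Most like Arntl were the adaptor Nck2 (0.98), the T cell adaptor Lat (0.98), Lrrc42 (0.98), Tmpo (0.97) and G2e3 (0.97), and Emc9 (-0.92), Ap2a1 (-0.90) and Stx8 (-0.90) were lowest. These genes are extremes of a search over many genes and 9 libraries, and are given as a description.

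Of 18 other genes of the clock machinery, all tested, 0 passed in each comparison by edgeR and DESeq2. Over all genes edgeR called 0% in each, and DESeq2 0.166%, 4.44% and 0.109% in the order used above. Their values were positive for 5 and negative for 13 in Itga8-Cre against Wild Type (median -0.06), 12 and 6 in Myh11-Cre against Wild Type (0.07), and 4 and 14 between the Cre lines (-0.14). Clock, the usual partner of Arntl, averaged 70.7 ± 6.41, 74 ± 9.67 and 69.1 ± 4.82 CPM in the Itga8-Cre, Myh11-Cre and Wild Type mice (SD, n = 3 each). Cry2, the other cryptochrome, averaged 44.1 ± 3.79, 46.9 ± 6.18 and 48.6 ± 1.53 CPM. Tef and Hlf, relatives of Dbp, had log2 fold changes of -0.08 and -0.32 in Itga8-Cre and of 0.16 and 0.06 in Myh11-Cre against Wild Type.

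Usp2, a deubiquitinase under clock control, had the smallest adjusted p of these 18 genes. It measured 62.1, 28.3 and 56.5 in Itga8-Cre mice, 72.5, 64 and 83.1 in Myh11-Cre mice, and 43.3, 46.3 and 38.8 in Wild Type mice. All Myh11-Cre mice lay above all others, and the log2 fold change against Wild Type was 0.77 (SE 0.26, adjusted p = 0.237 by edgeR). Csnk1e, a kinase of the Period proteins, did not overlap in any comparison, at 31.5 ± 0.755, 36.1 ± 0.294 and 34.3 ± 1.39 CPM in the Itga8-Cre, Myh11-Cre and Wild Type mice, and had -0.20 (SE 0.07, adjusted p = 0.521 by edgeR) between the Cre lines. Bhlhe40, a relative of Bhlhe41, averaged 72.7 ± 19.8, 115 ± 22.4 and 101 ± 51.5 CPM in the same order. Of the 18 genes, 1 lay wholly higher and 1 wholly lower in Itga8-Cre against Wild Type, and 4 and 1 in Myh11-Cre against Wild Type. Between the Cre lines these were 1 and 3. Over all genes 11.1%, 26% and 12.7% lay wholly apart in the 3 comparisons.

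Among genes downstream of the clock or of stimuli that reset it, edgeR called 0 in each list and comparison. It called 0% of all genes, so this count says nothing particular to these lists. The 18 clock output genes had medians of -0.10 in Itga8-Cre and 0.06 in Myh11-Cre against Wild Type and of -0.26 between the Cre lines. Wee1, a cell cycle kinase driven by the Arntl pair, measured 14.6, 10.6 and 13.5 in Itga8-Cre mice, 16.7, 20.7 and 20.3 in Myh11-Cre mice, and 15, 15.2 and 16.9 in Wild Type mice. Its Itga8-Cre mice lay below all others, and it had -0.58 (SE 0.14, adjusted p = 0.521 by edgeR) between the Cre lines. Of the 18 output genes, 0 lay wholly higher and 2 wholly lower in Itga8-Cre against Wild Type. These counts were 2 and 1 in Myh11-Cre against Wild Type, and 0 and 1 between the Cre lines. Over all genes 11.1%, 26% and 12.7% lay wholly apart in these comparisons.

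The 12 glucocorticoid-responsive genes, which share members with the output list, had positive values for 9 in Itga8-Cre (median 0.23) and for 10 in Myh11-Cre (median 0.39) against Wild Type. Of these 12, 0 lay wholly higher and 1 wholly lower in Itga8-Cre, beside 11.1% of all genes wholly apart. In Myh11-Cre the counts were 6 and 1, beside 26% of all genes. Tsc22d3, a glucocorticoid-induced repressor of inflammation, had 0.84 (SE 0.28) and Ddit4, an inhibitor of mTOR signalling, 0.78 (SE 0.31) in Myh11-Cre. Per1, also glucocorticoid-responsive, had negative values in both comparisons. Of 20 immediate early genes, 15 had negative values in each Cre line against Wild Type (medians -0.30 and -0.26). In Itga8-Cre, 1 of the 20 lay wholly higher and 7 wholly lower, beside 11.1% of all genes wholly apart. In Myh11-Cre 0 lay wholly higher and 0 wholly lower, beside 26% of all genes. Ccn1, a matrix protein induced by serum and stretch, had -1.15 (SE 0.30) and the transcription factor Egr1 -0.98 (SE 0.28) in Itga8-Cre. Egr1 in Myh11-Cre against Wild Type, at -1.01 (SE 0.28, adjusted p = 0.218 by edgeR), was the 1 gene of these lists that DESeq2 called (adjusted p = 0.0300).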

How the data were processed

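Raw counts per gene, 1 column for each of 9 libraries, were deposited by the authors and carry every test here. The authors also deposited a signal table (counts over a size factor), which was only checked against factors computed from the counts. The submitters' processing notes name DESeq2, Salmon (0.13.1), featureCounts and Subread (1.6.4), STAR (2.7.0f) and fastp (0.20.0), with the build GRCm38.p6 and no roles. Per the labels' protocols the kit marks strand. The annotation used and the strand setting of the counting: not given in the sources used here. The labels call the replicates separate mice.

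edgeR 4.0.16 in R 4.3.3 fitted group means to all 9 libraries (filterByExpr, TMM, robust quasi-likelihood). DESeq2 1.42.0 and voom of limma 3.58.1 were alternatives, and the fits were tested on simulated data. CPM used TMM-scaled library sizes, and log2 CPM a prior count of 1. Positions and exon lengths came from the GENCODE annotation of GRCm38. Correlations used exact two-sided permutation of pairings.

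The members and lists were chosen with earlier results of these data known. Named were all members, any other core clock gene, up to 4 genes of each further list by smallest p, and the 5 highest and 3 lowest correlations with Arntl and Dbp.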

Additional observations from a re-analysis of the deposited data

How the results depend on the processing

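The count of 0 clock genes called held in all 3 comparisons under 19 alternatives: DESeq2 size factors, no low-count filter, DESeq2, limma voom, the replicate block, a skeletal muscle or brown fat covariate, fits to the compared groups only, each of the 9 libraries left out, and 2 pairs of libraries left out, these pairs being chosen after the data were seen. Counts over all genes, 0 by edgeR and 0 with each library left out, moved more. DESeq2 called 30 genes in Itga8-Cre against Wild Type, 828 in Myh11-Cre against Wild Type and 19 between the Cre lines. Without Itga8-Cre 3 and Myh11-Cre 1, edgeR called 810 in Myh11-Cre against Wild Type and 254 between the Cre lines, and without Itga8-Cre 1 and Myh11-Cre 1 it called 265 in the former. The brown fat covariate gave 1 in both, and omitting the low-count filter gave 1 in Myh11-Cre against Wild Type. The labels name nothing that mice of the same number share, and not every same-numbered pair passed the residual correlation of 0.1 asked for, so the numbers were not taken as pairs. All 9 such correlations were positive (0.039 to 0.392), 5 of them above 0.1, and 6 of 9 libraries correlated best with their own number. Pairs of unlike number ran from -0.347 to 0.244. Residuals sum to 0 within each genotype, so these correlations are not independent of each other. A factor shared by mice of the same number was not tested. The replicate block called 0 clock genes and 1 gene, in Myh11-Cre against Wild Type. The cause of these shifts was not tested.

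Of 570 single-gene values, 0 passed and 23 changed sign, in 10 of 30 results. With the brown fat covariate, Npas2 had 0.012 in Itga8-Cre against Wild Type and Per3 0.0091 between the Cre lines. With the skeletal muscle covariate, Dbp had -0.030 in Myh11-Cre against Wild Type. Without Itga8-Cre 3 and Myh11-Cre 1, Dbp had 0.022 in Itga8-Cre against Wild Type, and Arntl had -0.10 and Per3 0.14 between the Cre lines. Without Itga8-Cre 1 and Myh11-Cre 1, Npas2 had 0.075 in Itga8-Cre against Wild Type and Nr1d1 -0.12 between the Cre lines. Leaving out single libraries gave ranges in Itga8-Cre against Wild Type of -0.21 to 0.16 for Npas2, -0.24 to 0.11 for Cry1 and -0.15 to 0.013 for Dbp. In Myh11-Cre against Wild Type they were -0.13 to 0.59 for Npas2 and -0.11 to 0.36 for Dbp. Between the Cre lines they were -0.29 to 0.42 for Arntl, -0.64 to 0.069 for Npas2, -0.22 to 0.10 for Per3, -0.092 to 0.38 for Nr1d1 and -0.42 to 0.045 for Dbp. Without Itga8-Cre 3 and Myh11-Cre 1, r of Arntl was 0.83 with Npas2 (exact permutation p = 0.0202, unadjusted) and -0.44 with Cry1. The mean log2 ratio of Dbp to Arntl ran from 2.99 to 3.85 in Itga8-Cre, 3.16 to 4.08 in Myh11-Cre and 3.69 to 3.98 in Wild Type with 1 mouse left out. The number of mice, 3 a genotype, limits every comparison, and Npas2 also has few reads.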
